A study of Mus musculus with 8 samples.

Results

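The genes described are those of small nucleolar RNAs (snoRNAs) and small Cajal body RNAs (scaRNAs) in primordial follicles of the mouse ovary. They were chosen by their summed counts: every gene whose symbol starts with Snord, Snora or Scarna entered if it had at least 10 counts over the 8 libraries. Of 26586 genes listed, 123 carry these prefixes and 92 reached the minimum, namely 56 of 76 box C/D genes (Snord), 27 of 38 box H/ACA genes (Snora) and 9 of 9 scaRNA genes. The other 31 symbols held 96 counts together, and 13 of them had 0 counts in all libraries. Just inside the minimum were Snord1b, Snord110 and Snord70 with 10 counts each, and just outside it were Snord32a with 9 and Snord98 with 8.

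The study asked whether mitochondrial supplementation of oocytes has effects that last over generations. Total RNA was sequenced from primordial follicles isolated from ovaries of C57Bl/6 x CBA mice on postnatal day 3. The mito-supplemented group (n = 4) held offspring of the third generation, whose founders had received mitochondria of egg precursor cells from the same strain during sperm injection, and the control group (n = 4) held mice of the colony. Follicles of an ovary were pooled for extraction, the cDNA was amplified, and rRNA depletion followed library construction. A further control library that the authors left out was not analysed here. The sample codes share their first part between control libraries 1 and 2, between control libraries 3 and 4 and between mito-supplemented libraries 1 to 3, while mito-supplemented library 4 has one of its own, and what this part stands for is not given in the sources used here. Each such part occurs in 1 group only, so it cannot be told apart from the groups. Whether the libraries of a group came from separate litters is not given either, so p-values measure only the spread between these samples.

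Box C/D snoRNAs guide the methylation of ribose in rRNA, and box H/ACA snoRNAs guide the conversion of uridine to pseudouridine, each in a complex with its own set of proteins. A few members of both classes take part in the cleavage of the rRNA precursor instead. The scaRNAs carry the boxes of either class or of both, stay in Cajal bodies and guide the same changes in the small nuclear RNAs of the spliceosome. In mammals most of these RNAs are cut out of introns of host genes, and many hosts encode ribosomal proteins or translation factors.

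Sequences of 6 members on which the values below turn are given, taken from GENCODE M21 on GRCm38, 5' to 3' on the strand of the gene. Snord14c (chr9:40803583-40803668), Snord14d (chr9:40803995-40804080) and Snord14e (chr9:40804748-40804837) are copies of the U14 snoRNA, which is needed for processing of 18S rRNA, and lie within Hspa8. Snord118 (chr11:69073427-69073561), the U8 snoRNA of rRNA processing, lies in no host gene. Snora23 (chr7:110046364-110046547) lies in an intron of Ipo7, and Scarna13 (chr12:105031075-105031349) in an intron of the noncoding gene Snhg10. Capitals mark TGATGA, the core of box C, where it lies in the first 20 bases of a box C/D gene, CTGA, box D, in the last 20, and the ACA before the last 3 bases of Snora23 and Scarna13. The TGATGA of Snord118 lies farther in and is not marked.
Snord14c: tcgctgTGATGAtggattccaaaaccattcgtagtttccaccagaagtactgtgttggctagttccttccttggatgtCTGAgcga
Snord14d: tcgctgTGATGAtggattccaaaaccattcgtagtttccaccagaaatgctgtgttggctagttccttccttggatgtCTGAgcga
Snord14e: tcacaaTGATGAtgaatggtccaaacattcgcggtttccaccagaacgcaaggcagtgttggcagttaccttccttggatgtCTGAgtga
Snord118: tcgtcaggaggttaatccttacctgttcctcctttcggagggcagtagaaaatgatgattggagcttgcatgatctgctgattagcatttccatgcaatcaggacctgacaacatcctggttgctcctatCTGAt
Snora23: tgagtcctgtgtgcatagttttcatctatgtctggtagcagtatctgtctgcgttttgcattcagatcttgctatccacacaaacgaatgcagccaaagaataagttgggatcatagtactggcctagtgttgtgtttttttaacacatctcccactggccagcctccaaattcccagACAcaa
Scarna13: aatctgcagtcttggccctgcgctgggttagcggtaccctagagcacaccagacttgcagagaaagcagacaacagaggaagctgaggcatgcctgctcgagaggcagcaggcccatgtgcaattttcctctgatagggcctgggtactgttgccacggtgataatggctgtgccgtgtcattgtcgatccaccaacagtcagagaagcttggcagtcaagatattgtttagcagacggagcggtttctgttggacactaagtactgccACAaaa

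The U14 copies Snord14c and Snord14d were identical at 84 of 86 aligned positions (97.7%), whereas Snord14c and Snord14e shared 79.6%. How reads that map to several places were counted is not given in the sources used here, so the split of counts between Snord14c and Snord14d is uncertain and their sum is used where the host gene is compared. Scarna3a and Scarna3b shared 85.7% of 140 aligned positions.

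The names of the classes were checked against the sequences. TGATGA within the first 20 bases together with CTGA within the last 20 was found in 35 of 56 box C/D genes, 0 of 27 box H/ACA genes and 4 of 9 scaRNA genes, against 20.5% of 1507 snoRNA transcripts in the annotation. An ACA 3 bases before the end was found in 0 of 56 box C/D, 21 of 27 box H/ACA and 2 of 9 scaRNA genes, against 18.3% of those transcripts. Only the annotated strand was searched. The median annotated length was 77.5 bases for box C/D, 133 for box H/ACA and 140 for scaRNA genes. Lengths in GENCODE and RefSeq differed by more than 1.5 times for 8 members, among them Scarna9, Scarna2 and Scarna10, and no level per length is given for these.

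Control libraries 1 to 4 held 17658559, 13917412, 18219362 and 10370045 counts, and mito-supplemented libraries 1 to 4 held 19760763, 13370911, 16116434 and 13276462. Several libraries stood apart before any member was compared. In control library 4, 75.3% of the counts lay on the rRNA genes Rnr1, Rnr2, Rn45s and Rn18s, which left 2559876 counts for all other genes. The other libraries had between 20.2% and 45.6% there. The rRNA counts of control library 4 lay mostly on Rnr2 (6282569) and Rnr1 (1393001). By contrast, Rn45s (126775) and Rn18s (7824) had fewer counts in it than in any other library, and its total was also the lowest.

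Markers of other cells differed between libraries too. Of 11 red cell markers 6 were in the file, with Slc4a1, the anion exchanger of the red cell membrane, the most abundant and Hba-a1 at 0 in all libraries but mito-supplemented library 1, which had 5 counts. Their summed level in counts per 1000000 counts outside rRNA genes (ppm outside rRNA) was 42.7, 6029, 4024 and 100.4 in control libraries 1 to 4 and 6364, 158, 61.6 and 53.8 in mito-supplemented libraries 1 to 4. Control libraries 2 and 3 and mito-supplemented library 1 therefore stood far above the rest. Immune markers, led by Lyz2, the lysozyme of myeloid cells, were highest in the same 3 libraries, at 29.2, 217, 199.7 and 43.8 ppm outside rRNA in controls and 1018, 23.6, 40.7 and 16.8 in mito-supplemented libraries. Results for the members are given below with and without these 3 libraries, called rich in red cell counts, a choice made after the data were seen. Leaving them out keeps control libraries 1 and 4 against mito-supplemented libraries 2 to 4. Control library 4, rich in Rnr1 and Rnr2 counts, then makes up a large part of the remaining control group.

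The label of primordial follicles was checked with markers. Oocyte markers, with Kit the most abundant of 13, summed to 4143, 249, 214 and 838 ppm outside rRNA in controls and to 381, 297, 954 and 144.5 in mito-supplemented libraries. All libraries thus held oocyte RNA, with control library 1 far above the others, although the oocyte secreted protein gene Oosp1 was at 0 in all but control library 1 and mito-supplemented library 3. Pregranulosa markers, led by Wt1, summed to 393, 273, 368 and 1430 in controls and 492, 1901, 1391 and 2161 in mito-supplemented libraries. Stroma markers, led by Col3a1, summed to 588, 682, 1036 and 4290 in controls and 1252, 1930, 5424 and 4078 in mito-supplemented libraries. They lay above the pregranulosa sum in every library and above the oocyte sum in all but control library 1. Surface epithelium markers summed to 193, 91.0, 66.3 and 801 in controls and 427, 1881, 867 and 1629 in mito-supplemented libraries. Fewer cells of a type and less RNA per cell cannot be told apart in such bulk samples.

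Together the 92 members held 17256 counts. The 9 scaRNA genes took 49.1% of them (8478 counts), the box C/D genes 26.9% (4646) and the box H/ACA genes 23.9% (4132). These are shares of counts, not corrected for length, and the median lengths of the classes differ. How well RNAs this short were kept through extraction and library construction was not tested. The part of reads from unspliced host RNA was not tested either. Scarna9, a guide for U2 small nuclear RNA, alone had 5128 counts. The median gene had 45 counts among box C/D, 99 among box H/ACA and 204 among scaRNA genes. Only 18 members had a count in every library, 8 of them box C/D, 5 box H/ACA and 5 scaRNA genes.

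The members took 113.7, 229.9, 216.4 and 25.8 of every 1000000 counts (ppm of all counts) in control libraries 1 to 4 and 167.3, 120.2, 103.1 and 95.2 in mito-supplemented libraries 1 to 4. The share was highest in control libraries 2 and 3 and lowest in control library 4, where its Wilson 95% interval ran from 22.9 to 29.1, and the mito-supplemented libraries lay between these. The means were 146 ± 95.7 in controls and 121 ± 32.3 in mito-supplemented libraries (SD, n = 4 each), a difference of -25.0 that is smaller than the spread between controls. Without the 3 libraries rich in red cell counts the difference was 36.4, and without control library 2 alone it was 2.78. Such intervals, and the upper limits given for zero counts, describe counting error alone, because the cDNA was amplified and its reads are not separate molecules.

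**Figure D1:**
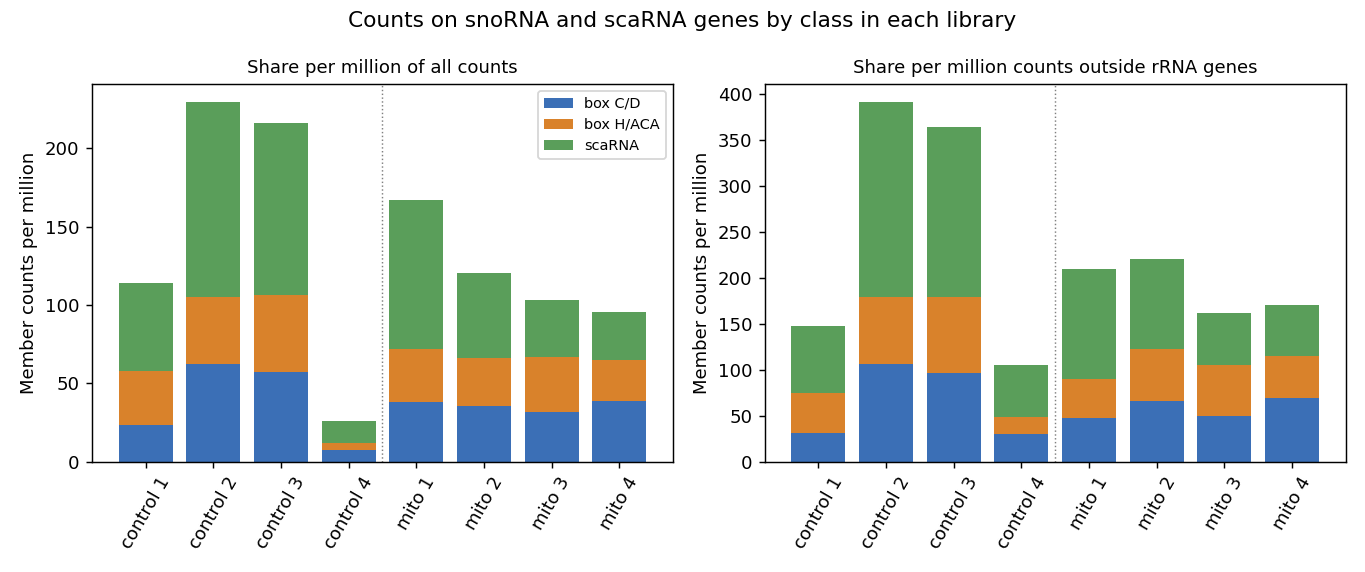
Counts on member genes in ppm of all counts (left) and in ppm outside rRNA (right) in each library, stacked by class, with a dotted line between control and mito-supplemented libraries. The tallest bars on both scales are those of control libraries 2 and 3, 229.9 and 216.4 ppm on the left, and control library 4 the shortest, 25.8.

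Outside rRNA genes the members took 147.7, 391.6, 364.1 and 104.7 ppm in controls and 209.5, 220.7, 162.0 and 169.9 in mito-supplemented libraries. Control library 4 remained the lowest on this scale, but mito-supplemented library 1 no longer stood above mito-supplemented library 2. The means were 252 ± 147 and 191 ± 28.9 (SD, n = 4 each), and the groups overlapped. The part of red cells or of rRNA in these differences was not tested.

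By class, box C/D genes took 23.6, 62.1, 57.1 and 7.33 ppm of all counts in controls and 38.2, 35.6, 31.5 and 38.5 in mito-supplemented libraries. Box H/ACA genes took 34.0, 43.3, 49.2 and 4.73 in controls and 33.4, 30.8, 35.2 and 26.1 in mito-supplemented libraries. For scaRNA genes the shares were 56.2, 124.5, 110.1 and 13.8 in controls and 95.7, 53.8, 36.4 and 30.7 in mito-supplemented libraries. On this scale control library 4 was the lowest in each class, and the mito-supplemented values fell inside the range of the controls. Outside rRNA genes mito-supplemented library 4 had the lowest scaRNA share, 54.7 ppm against 55.9 in control library 4. The difference between group means was -1.59 for box C/D, -1.42 for box H/ACA and -22.0 for scaRNA genes, against SDs between controls of 26.4, 19.7 and 50.9. For scaRNA genes it was -5.89 without control library 2 and -42.8 without control library 4. With the 3 libraries rich in red cell counts left out, the differences of the classes were 19.7, 11.3 and 5.30, in the same order.

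The balance of the snoRNA classes moved less than their amounts. Box H/ACA genes took 59.1%, 41.1%, 46.3% and 39.2% of the snoRNA counts in control libraries 1 to 4 and 46.6%, 46.4%, 52.8% and 40.4% in mito-supplemented libraries 1 to 4. Control library 1, the library richest in oocyte markers, had the highest percentage, with a Wilson 95% interval from 56.003 to 62.0, and the interval of control library 4 ran from 31.1 to 48.0. The group means were 46.4 ± 8.95 and 46.6 ± 5.07 (SD, n = 4 each), a difference of 0.157 percentage points. It was -2.61 without the 3 libraries rich in red cell counts and -2.24 without control library 4, so its sign depended on single libraries. The part of scaRNA genes in all member counts was 49.4%, 54.2%, 50.9% and 53.4% in controls and 57.2%, 44.7%, 35.3% and 32.2% in mito-supplemented libraries, where libraries 2 to 4 lay below every control.

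Detection followed depth only in part. Of the 92 members, 66, 86, 87 and 30 had at least 1 count in control libraries 1 to 4 and 77, 83, 85 and 43 in mito-supplemented libraries 1 to 4. Control library 4 and mito-supplemented library 4 thus lacked many members, 62 and 49, although the total of the latter was close to that of mito-supplemented library 2, which lacked 9. A count of 0 allows up to 0.289 ppm in control library 4 and up to 0.226 in mito-supplemented library 4. Of the members with a zero there, box C/D genes made up 41 and 32, box H/ACA genes 19 and 15, and scaRNA genes 2 and 2.

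**Figure D2:**
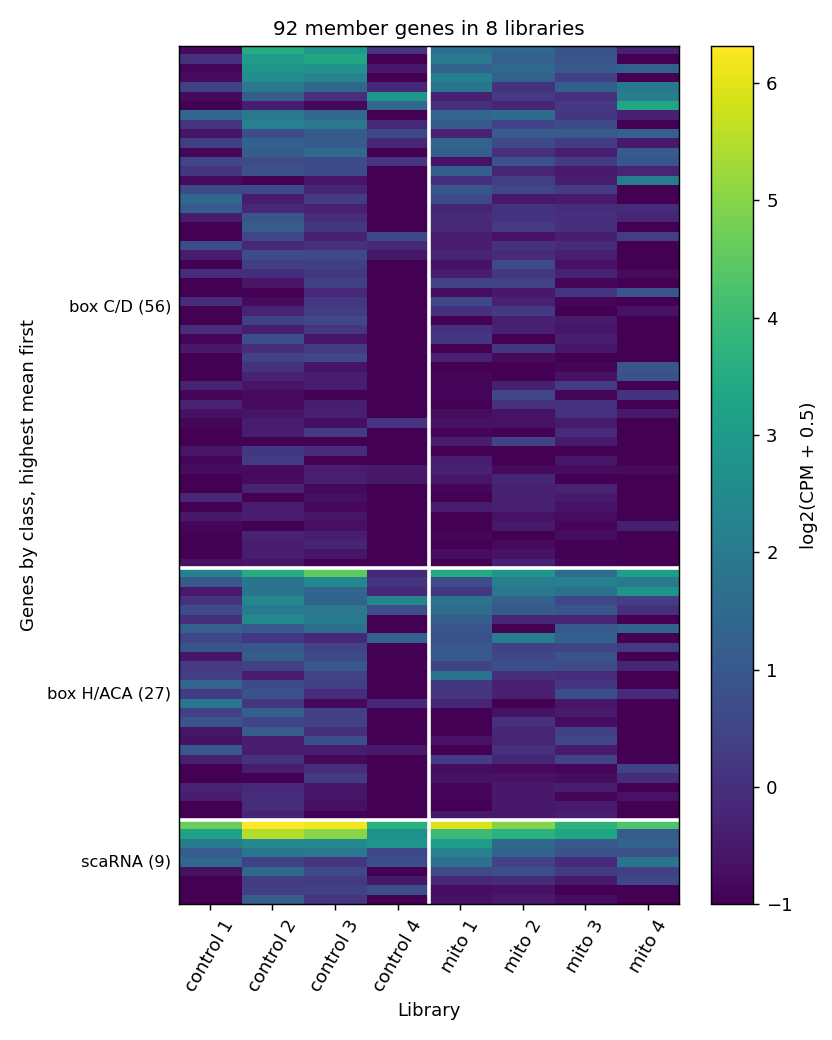
Level of each of the 92 members (log2 of CPM + 0.5) in each library, with genes grouped by class and ordered by mean level within a class; CPM are counts per 1000000 after TMM scaling. Control libraries 2 and 3 are bright in all classes, whereas control library 4 and mito-supplemented library 4 are dark for most genes, with 62 and 49 members at 0 counts.

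Among the box C/D genes, the U14 copies differed widely between libraries. Snord14c had 13, 96, 172 and 0 counts in control libraries 1 to 4 and 68, 27, 31 and 0 in mito-supplemented libraries 1 to 4. Snord14e had 2, 138, 123 and 3 in controls and 56, 32, 28 and 4 in mito-supplemented libraries, and Snord14d had 1, 86, 105 and 1 and then 39, 34, 34 and 27. For all 3 copies control libraries 2 and 3 were the highest, control libraries 1 and 4 had at most 13 counts, and no mito-supplemented library reached control libraries 2 and 3. Their levels in CPM were 4.495 ± 4.97 and 1.64 ± 1.36 for Snord14c, 4.66 ± 5.25 and 1.62 ± 1.08 for Snord14e, and 3.27 ± 3.65 and 1.92 ± 0.334 for Snord14d (SD, n = 4 each, control first).

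The host gene of these copies, Hspa8, which encodes a constitutive heat shock chaperone, did not share this pattern. It had 5234, 5320, 6005 and 1204 counts in control libraries 1 to 4 and 6204, 4294, 8327 and 3231 in mito-supplemented libraries 1 to 4. Per 1000 Hspa8 counts the 3 copies together had 3.06, 60.2, 66.6 and 3.32 counts in controls and 26.3, 21.7, 11.2 and 9.59 in mito-supplemented libraries. The highest ratio was 21.8 times the lowest, and both extremes were control libraries, so the groups overlapped entirely. The annotation places each copy within an exon of some Hspa8 transcript, so reads of unspliced or alternative Hspa8 RNA and of the snoRNA cannot be told apart.

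**Figure D3:**
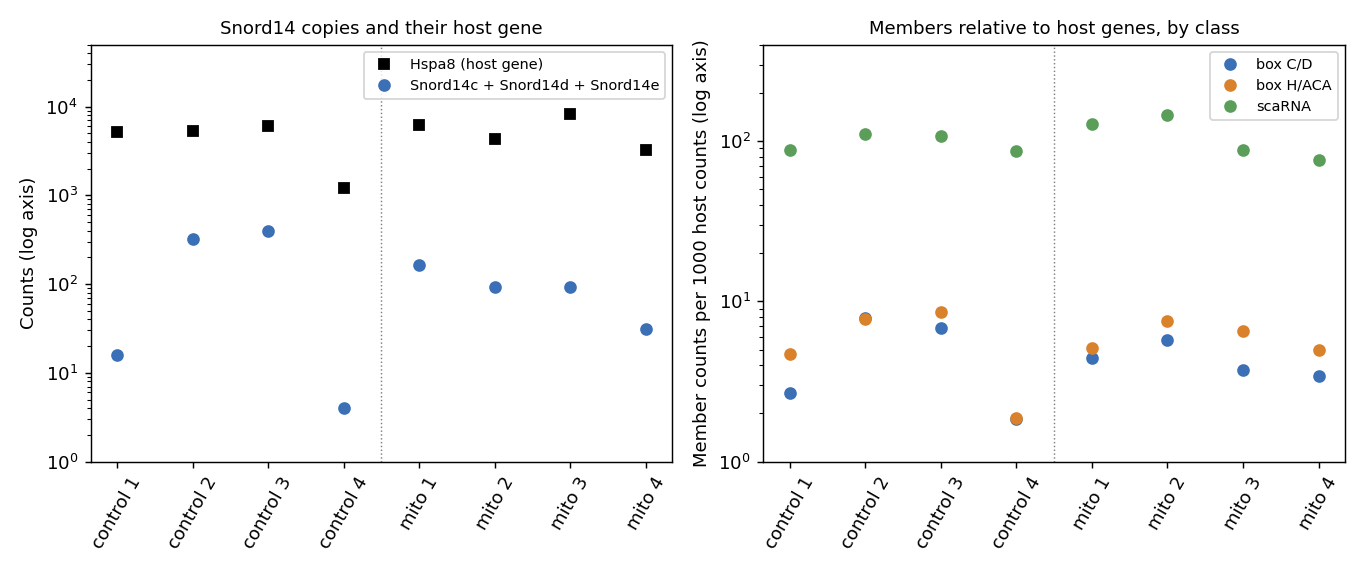
Left, counts of Hspa8 and summed counts of Snord14c, Snord14d and Snord14e in each library; right, counts of members per 1000 counts of their host genes by class, both on log axes. On the left the snoRNA points run from 4 to 400 counts while Hspa8 runs from 1204 to 8327, and on the right scaRNA genes lie above both snoRNA classes in every library.

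Snord22, the U22 snoRNA of 18S rRNA processing, had 2, 70, 75 and 0 counts in controls and 81, 27, 18 and 0 in mito-supplemented libraries. Control libraries 2 and 3 and mito-supplemented library 1 were again the highest. Its host Snhg1, a noncoding gene, had 448, 1024, 1830 and 173 counts in controls and 1698, 424, 860 and 235 in mito-supplemented libraries. Rnu3a, a gene of the U3 box C/D snoRNA that does not carry the prefix, had 0, 84, 54 and 2 counts in controls and 23, 11, 4 and 0 in mito-supplemented libraries, with the same 3 libraries on top.

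Snord100, in the ribosomal protein gene Rps12, had 21, 42, 40 and 2 counts in controls and 63, 8, 40 and 48 in mito-supplemented libraries. Snord17, in an intron of the sorting nexin gene Snx5, had 51, 41, 42 and 0 in controls and 44, 36, 14 and 4 in mito-supplemented libraries. Neither gene separated the groups. Per kilobase of annotated length, the median over 52 box C/D genes was 4.11 CPM and the highest value was 35.7 for Snord14c. Snord14e had 34.9 and Snord14d 30.1, so this order depends on the uncertain split of counts between Snord14c and Snord14d.

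The box H/ACA gene with most counts was Snora23, with 99, 139, 377 and 2 counts in controls and 212, 97, 57 and 116 in mito-supplemented libraries. Control library 3 was the highest and control library 4 the lowest, and all mito-supplemented values lay between these 2. Its host Ipo7, which encodes a nuclear import receptor, had 1333, 1537, 2048 and 411 counts in controls and 2218, 1478, 2205 and 917 in mito-supplemented libraries. Per 1000 Ipo7 counts Snora23 thus ranged from 4.87 in control library 4 to 184 in control library 3.

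Snora81, in the translation factor gene Eif4a2, had 38, 39, 84 and 3 counts in controls and 24, 56, 92 and 50 in mito-supplemented libraries. Snora31, in an intron of Tpt1, had 5, 37, 37 and 2 in controls and 13, 47, 61 and 92 in mito-supplemented libraries. In counts, mito-supplemented libraries 2 to 4 lay above every control for Snora31 and library 1 did not, and in CPM mito-supplemented library 3 (2.77) lay below control library 2 (2.93), so the groups overlapped. In CPM Snora31 was 1.41 ± 1.33 in controls and 3.26 ± 2.38 in mito-supplemented libraries (SD, n = 4 each; exact permutation test, two-sided, p = 0.20).

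Snora73a, the U17 RNA of rRNA precursor cleavage, had 12, 67, 61 and 0 counts in controls and 36, 5, 8 and 0 in mito-supplemented libraries. Its annotated host Rcc1, the exchange factor of the GTPase Ran, had 698, 498, 694 and 268 counts in controls and 405, 40, 98 and 25 in mito-supplemented libraries. Rcc1 was thus low in mito-supplemented libraries 2 to 4, and Snora73a was low in these and in control libraries 1 and 4. The span of Snora73a also overlaps exons of Snhg3 and Gm17300, at least 1 of them on the other strand, and the strand setting of the counting is not given in the sources used here. Snora65 and Snora28, in Rpl12 and Eif5, had between 0 and 56 counts in every library, and Snora17 had 52, 14, 14 and 0 in controls and 13, 4, 14 and 0 in mito-supplemented libraries. Over 26 box H/ACA genes the median was 4.87 CPM per kilobase, and Snora23 was the highest at 43.9.

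Among the scaRNA genes Scarna9 had 595, 999, 1244 and 62 counts in control libraries 1 to 4 and 1239, 440, 282 and 267 in mito-supplemented libraries 1 to 4. Control libraries 2 and 3 and mito-supplemented library 1 were the highest, and the groups overlapped. Its host, listed as 5830418K08Rik and now called Cep295, a gene of a centriole protein, had 5299, 5911, 6973 and 797 counts in controls and 5125, 1857, 2321 and 1404 in mito-supplemented libraries. Per 1000 host counts Scarna9 ranged from 77.8 to 242, a ratio of 3.11, against 21.8 for the U14 copies and 4.28 for Snora81. The U14 sum fell to 16 and 4 counts in control libraries 1 and 4, so its ratio carries more counting error.

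Scarna13, the U93 RNA, which carries H/ACA boxes, had 213, 550, 553 and 30 counts in controls and 319, 176, 211 and 24 in mito-supplemented libraries. For Scarna13, control libraries 2 and 3 lay above all others, and control library 4 and mito-supplemented library 4 were both near the bottom. Its host Snhg10 had 10, 24, 15 and 0 counts in controls and 7, 23, 12 and 0 in mito-supplemented libraries. Scarna3a, in Cop1 (listed as Rfwd2), had 85, 62, 87 and 33 in controls and 158, 33, 33 and 29 in mito-supplemented libraries, and Scarna2, which lies in no host gene, had 41, 40, 58 and 5 and then 83, 30, 29 and 18. Over the 6 scaRNA genes with a settled length the median was 11.1 CPM per kilobase. Scarna13 had the highest value of any member with a settled length, 58.5, taking the split between Snord14c and Snord14d as listed.

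Of the 92 members, 87 lay within an annotated host gene, 69 of these in protein-coding and 18 in noncoding genes. The hosts of 26 members encode ribosomal proteins. The 68 distinct hosts included 13 with more than 1 member, led by Snhg12 with 4. A host exon overlapped 43 members, and 51 overlapped an exon of any other gene, 29 of 56 box C/D, 18 of 27 box H/ACA and 4 of 9 scaRNA genes. For the 41 members clear of other exons, the difference between groups in share of counts was 3.23 ppm for box C/D and 0.707 for box H/ACA genes, opposite in sign to those over all members of these classes. It was -11.4 for scaRNA genes and -7.48 for all 41, below 0 as over all members.

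The hosts of 84 members were in the file. Per 1000 counts of these hosts the members had 8.29, 17.6, 15.9 and 4.75 counts in control libraries 1 to 4 and 11.8, 13.1, 8.25 and 6.93 in mito-supplemented libraries 1 to 4. Control library 4 was again the lowest and control libraries 2 and 3 the highest. The hosts themselves took 16351, 21260, 22124.5 and 20483 ppm outside rRNA in controls and 16949, 15877, 18319 and 20790.1 in mito-supplemented libraries. Over all classes together this was a far narrower range. It was not so for scaRNA genes, whose hosts ran from 597 ppm in mito-supplemented library 3 to 1837 in control library 2. Per 1000 counts of these hosts, scaRNA genes had from 76.7 counts in mito-supplemented library 4 to 145 in mito-supplemented library 2. Per 1000 host counts the group means were 4.80 ± 2.98 and 4.32 ± 1.02 for box C/D, 5.70 ± 3.04 and 6.04 ± 1.24 for box H/ACA, and 98.3 ± 12.7 and 110 ± 32.3 for scaRNA genes (SD, n = 4 each, control first). None of these differences exceeded the larger SD of its pair.

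In edgeR's quasi-likelihood test across all genes, 0 of 13873 genes were called at an adjusted p under 0.05 with at least a 2-fold difference (0%), and 0 of the 32 members tested. The low-count filter kept 32 of the 92 members, 14 box C/D, 12 box H/ACA and 6 scaRNA genes. At an unadjusted p under 0.05 there were 1069 genes (7.71%) and 0 members. edgeR's likelihood ratio test called 58 genes (0.418%) and DESeq2 141 (1.02%), with 0 members in either, and limma-voom called 0 genes. Groups that did not overlap were seen for 698 genes (5.03%) and for 0 of the 32 members.

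The median log2 fold change of mito-supplemented over control libraries was -0.29 over the 32 members and -0.10 over all genes tested. It was -0.37 for box C/D, -0.14 for box H/ACA and -0.32 for scaRNA genes, with 11 of 14, 6 of 12 and 4 of 6 below 0. The median SE was 1.09 for members and 0.65 for all genes, and the median coefficient of biological variation 0.984 and 0.671, so that a 2-fold difference lay within about 1 SE for a typical member. The 1308 other genes between the quartiles of the members' mean level had a median SE of 1.22, a median coefficient of 1.10 and a median log2 fold change of 0.01. Scaling by library size alone moved the median of all genes to 0.17 and that of members to -0.03, and without control library 2 or 3 the median of members was 0.09 or 0.03. By class it was 0.08, 0.21 and -0.07 without control library 2, and for box H/ACA genes also above 0 without control library 3 (0.25) or mito-supplemented library 2 (0.03) and with a filter of at least 1 CPM in 4 samples (0.09). Without the 3 libraries rich in red cell counts the median was 0.57 over 33 members, against -0.01 for all genes. By class it was then 1.65 for box C/D, 0.55 for box H/ACA and 0.15 for scaRNA genes.

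Scarna13 had the lowest p of the members, with 22.5 ± 18.2 CPM in controls and 9.73 ± 5.89 in mito-supplemented libraries (SD, n = 4 each). Its log2 fold change was -1.21 (SE 0.78, edgeR quasi-likelihood adjusted p = 0.711). Snora73a, at 2.32 ± 2.52 and 0.614 ± 0.773 CPM, had -1.91 (SE 1.49, edgeR quasi-likelihood adjusted p = 0.742). Snord14e and Snord14c had -1.52 (SE 1.27) and -1.45 (SE 1.495), Snora17 had -1.39 (SE 1.29), and Snora31 had the highest value, 1.19 (SE 1.05). Each of these differences was smaller than 2 SEs. Without the 3 libraries rich in red cell counts the log2 fold change was 0.11 for Scarna13, 2.03 for Snord14e, 1.86 for Snord14c and 3.85 for Snora31. Single libraries moved these values too. Without control library 2 they were -0.67 for Scarna13, -0.68 for Snord14e, -1.12 for Snora73a and 1.81 for Snora31, without control library 3 -0.73 for Snord14c, and without control library 1 -0.73 for Snora17. Snora31 had 0.66 without mito-supplemented library 4 and 0.35 without both libraries numbered 4.

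**Figure D4:**
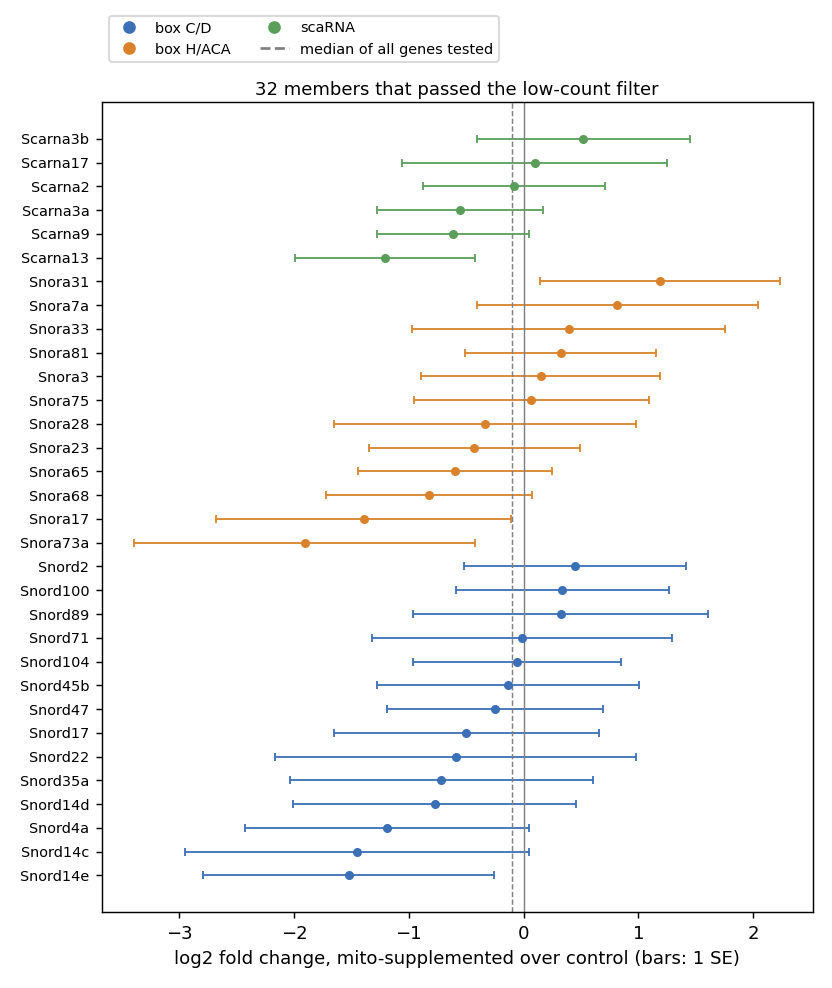
log2 fold change of mito-supplemented over control libraries for the 32 members that passed the low-count filter, coloured by class, with bars of 1 SE and a dashed line at the median of all genes tested, -0.10. Values run from -1.91 for Snora73a to 1.19 for Snora31, and no member had an unadjusted p under 0.05.

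The choice of libraries and filter changed which members had an unadjusted p under 0.05. With every gene kept that had at least 1 count, all 92 members were tested and 3 reached it, Snord14a, Snord58b and Snord96a, of 1571 genes among 20837 (7.54%). Snora74a reached it without control library 4, as 1 of 41 members against 12.6% of all genes, and Snora52 without mito-supplemented library 2, as 1 of 39 against 3.95%. Snora31 and Snord123 reached it without the 3 libraries rich in red cell counts, 2 of 33 members against 10.8% of all genes. These genes, Snora31 apart, were chosen after their values were seen. Snord58b had 4, 8, 8 and 0 counts in controls and 0 in all mito-supplemented libraries, and Snord14a had 0 in all controls and 5, 13, 5 and 0 in mito-supplemented libraries, so both rest on 20 and 23 counts.

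For 27 members both member and host were tested, and across these genes the log2 fold changes correlated with r = 0.477 (n = 27 genes that share libraries and, in some cases, a host). The 23 hosts had a median of -0.23. Against 7.71% of all genes tested, 2 of these hosts had an unadjusted p under 0.05. They were Rcc1, the host of Snora73a, with a log2 fold change of -2.48 (SE 0.73), and 5830418K08Rik, the host of Scarna9, with -1.10 (SE 0.45). Neither was called after adjustment in edgeR's test.

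Libraries were also compared over the 32 members by their log2 CPM. Control libraries 2 and 3 were the most alike (r = 0.933), and mito-supplemented library 1 came next to them (r = 0.798 and 0.774; n = 32 genes each). Mito-supplemented library 4 was the least like the others, with r from 0.252 to 0.524. Of the 92 members, 55 had their highest CPM in control library 2, control library 3 or mito-supplemented library 1, where the levels of red cell and immune markers were also highest.

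Mito-supplemented library 4 had the highest CPM for 13 members, although it lacked 49. Snord118, chosen after its values were seen, had 0, 3, 1 and 11 counts in controls and 10, 5, 15 and 138 in mito-supplemented libraries. Snord96a, in the gene of the ribosomal scaffold protein Rack1, had 2, 0, 3 and 0 in controls and 10, 11, 6 and 54 in mito-supplemented libraries. For both genes most counts came from this 1 library, and for Snord118 the other mito-supplemented libraries overlapped the controls. For Snord96a the groups did not overlap, with all controls below the mito-supplemented libraries, which in CPM was seen for 1 of the 92 members and for 784 of the 18377 genes with at least 10 counts (4.27%, either direction).

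The proteins that bind these RNAs were tested as a fixed list. Of the box C/D core genes 4 were tested, and 0 had an unadjusted p under 0.05 (median log2 fold change -0.33). Fbl, the methyltransferase, had 17.5 ± 2.12 CPM in controls and 11.5 ± 2.77 in mito-supplemented libraries (SD, n = 4 each; log2 fold change -0.60, SE 0.39, edgeR quasi-likelihood adjusted p = 0.711). The scaffold proteins Nop56 and Nop58 had -0.14 (SE 0.43) and -0.36 (SE 0.31).

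Of the 4 box H/ACA core genes, 1 had an unadjusted p under 0.05, Nhp2, and the median log2 fold change was -0.65. Nhp2, a protein that binds the RNA, had 24.6, 16.2, 14.7 and 19.3 CPM in controls and 8.73, 10.9, 7.67 and 2.43 in mito-supplemented libraries. Every control lay above every mito-supplemented library (log2 fold change -1.33, SE 0.52, edgeR quasi-likelihood adjusted p = 0.626; p = 0.0286 in a two-sided exact permutation test, the lowest value possible with 4 against 4). Of all genes tested, 7.71% had an unadjusted p under 0.05 and 5.03% had groups that did not overlap. Dkc1, the pseudouridine synthase, had -0.47 (SE 0.39), Gar1 -0.83 (SE 0.56) and Nop10 0.41 (SE 0.50), and their groups overlapped. Dkc1 was lower at an unadjusted p under 0.05 without mito-supplemented library 1, where 14.1% of all genes had such a p. The unadjusted p of Nhp2 was not under 0.05 without control library 1, without mito-supplemented library 3, without the 3 libraries rich in red cell counts or with scaling by library size alone. Without control library 4 the median of the list was -0.28. Oocyte markers had a median of -1.70 over 11 genes tested, which was 0.22 without control library 1 and -0.78 in limma-voom, and their part in the values of Nhp2 was not tested.

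Among 9 assembly factors tested, 0 had an unadjusted p under 0.05 (median -0.16), and among 11 Cajal body and scaRNA binding genes likewise 0 (median -0.39). In other fits Ruvbl2 of the assembly factors reached it in DESeq2, against 10.8% of all genes. Nolc1 of the Cajal body list reached it without control library 3, against 6.21% of all genes. It also did so without the 3 libraries rich in red cell counts, against 10.8%. Both Ruvbl2 and Nolc1 were lower in mito-supplemented libraries. Coil, the scaffold of Cajal bodies, had -0.45 (SE 0.81), and Wrap53, which directs scaRNAs to them, had -0.39 (SE 0.83). Scaling by library size alone left the medians of the box C/D core, box H/ACA core and Cajal body lists below 0, at -0.05, -0.23 and -0.15, and moved that of the assembly factors to 0.06. Over single libraries left out the median of the box C/D core ran from -0.50 without mito-supplemented library 1 to -0.21 without mito-supplemented library 4, that of the Cajal body list from -0.48 without control library 4 to -0.01 without control library 1, and that of the assembly factors from -0.32 without control library 4 to 0.09 without mito-supplemented library 1.

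Other noncoding RNA was set beside the members. Of 22 other small structured RNA genes in the file 4 were tested, with a median of -0.63, and Rmrp, the RNA of an endonuclease that cleaves the rRNA precursor, had an unadjusted p under 0.05 with 376 ± 72.4 CPM in controls and 240 ± 36.0 in mito-supplemented libraries (SD, n = 4 each; log2 fold change -0.65, SE 0.29, edgeR quasi-likelihood adjusted p = 0.647). An unadjusted p under 0.05 was found for 7.71% of all genes tested. Of the fits without 1 library, Rmrp reached it only without control library 4 or mito-supplemented library 1. It did not reach it in edgeR's likelihood ratio test, with scaling by library size alone, with TMM scaling without rRNA genes or with either of the other low-count filters. Without the 3 libraries rich in red cell counts the median of these RNAs was 0.08 over 3 genes. The nuclear-retained long RNAs, led by Malat1, summed to 7153, 27231, 20878 and 11233 ppm outside rRNA in controls and 17551, 25162, 15328 and 22008 in mito-supplemented libraries. Control library 1 was the lowest for these RNAs, and their median log2 fold change was 0.15 over 6 genes, -0.05 without control library 1 and 0.71 without control library 2. With the 3 libraries rich in red cell counts left out it was 1.38, and 3 of 6 (Kcnq1ot1, Neat1 and Xist) were higher at an unadjusted p under 0.05, against 10.8% of all genes. Neat1, the RNA that builds paraspeckles, had 7, 829, 702 and 3 counts in controls and 1673, 141, 78 and 241 in mito-supplemented libraries, highest in the 3 libraries rich in red cell counts. Of the host genes listed by name 12 were tested, with a median of -0.26. Against 7.71% of all genes, 2 genes of this list had an unadjusted p under 0.05. They were the maternally expressed Rian and Meg3, both higher in mito-supplemented libraries. Neither is the annotated host of a member. The median of this list was 0.06 without control library 2 and 0.13 without the 3 libraries rich in red cell counts. Without mito-supplemented library 4 only Meg3 had such a p, against 4.34% of all genes.

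Markers of the cell types that such samples could hold were set beside the members. Unadjusted p values under 0.05, found for 7.71% of all genes tested, were seen for 3 of 10 pregranulosa, 6 of 10 surface epithelium and 1 of 7 endothelial markers, all higher in mito-supplemented libraries, with medians of 1.09, 1.88 and 0.85. None of them had an edgeR quasi-likelihood adjusted p under 0.05, and the lowest was 0.418. In edgeR's likelihood ratio test the lowest adjusted p was 1.06e-05 for surface epithelium, 0.0123 for endothelial (Esam) and 0.0779 for pregranulosa markers, and in DESeq2 it was 3.84e-08, 0.000466 and 0.0340. The surface epithelium count was 2 without control library 1 (7.67% of all genes in that fit) or mito-supplemented library 2 (3.95%). It was 3 without control library 2 (5.55%), control library 3 (6.21%) or mito-supplemented library 4 (4.34%). It was 7 without mito-supplemented library 3 (5.53%), 8 without mito-supplemented library 1 (14.1%) and 10 without control library 4 (12.6%). The pregranulosa count was 5 without control library 4 (12.6%) or mito-supplemented library 1 (14.1%). Without any other single library it was between 2 and 3, against 3.95% to 7.67% of all genes. The endothelial median was 0.14 without mito-supplemented library 3 and 1.58 without control library 4.

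Stroma, smooth muscle and immune markers had 0 genes at an unadjusted p under 0.05, with medians of 0.84, 0.88 and 0.90. Without control library 4 there were 5 of 8 stroma and 2 of 5 smooth muscle markers, all higher in mito-supplemented libraries, against 12.6% of all genes in that fit. Scaling by library size alone gave 5 stroma markers and 1 smooth muscle marker (9.67% of all genes), and limma-voom gave 3 and 1 (10.3%). The stroma median was 1.69 without that library and 0.37 without mito-supplemented library 3, and the smooth muscle median was 2.10 without control library 4 and -0.17 without mito-supplemented library 4. The immune median was -1.97 without mito-supplemented library 1, where 2 of 6 genes were lower at an unadjusted p under 0.05 against 14.1% of all genes, and -0.75 in limma-voom. Red cell markers had 0 of 4, with a median of -0.24 that was -4.89 without mito-supplemented library 1, where all 4 reached such a p, and 0.78 without control library 2.

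All 11 oocyte markers tested had a log2 fold change below 0. Against 7.71% of all genes, 1 of them, Kit, the receptor of stem cell factor, had an unadjusted p under 0.05. Kit did not reach it in limma-voom, with scaling by library size alone, without both libraries numbered 4, or without control library 1, mito-supplemented library 2 or mito-supplemented library 4, and without control library 1 only 3 of the 11 were below 0. Without the 3 libraries rich in red cell counts 8 of 12 oocyte markers were lower at an unadjusted p under 0.05, against 10.8% of all genes, with a median of -2.54. The part of these cells in the values of the members was not tested.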

How the data were processed

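RNA-Seq counts of 4 control and 4 mito-supplemented samples were analysed, without a further control library that the authors left out. The authors trimmed the reads with Trim Galore 0.4.4, mapped them to GRCm38 with STAR 2.5.3a and counted them on exons with featureCounts, and the deposited values are raw counts per gene symbol. Annotation release, strand setting and treatment of reads with several matches are not given in the sources used here. Total counts ranged from 10370045 to 19760763. Groups were compared with the two-sided quasi-likelihood test of edgeR 4.0.16 (R 4.3.3) after TMM scaling and the default low-count filter, adjusting by Benjamini-Hochberg over 13873 genes. DESeq2 1.42.0 and limma 3.58.1 served as alternatives. The SE of a fold change was its size over the root of F. Coordinates, lengths, hosts and sequences came from GENCODE M21, to which all 92 members were matched by symbol; RefSeq lengths were compared. Permutation tests used log2(CPM + 0.5).

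The genes named were the 6 Snord, 6 Snora and 4 Scarna genes with most counts (1 of these Snora genes needs a withheld item and is not reported here), the 6 members with the lowest unadjusted p, 9 genes of binding proteins (Fbl, Nop56, Nop58, Dkc1, Gar1, Nhp2, Nop10, Coil, Wrap53) and, by their counts, the host genes. Members and lists were chosen with earlier results of these data known. Leaving out the 3 libraries rich in red cell counts, or both libraries numbered 4, was chosen after seeing the data.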

Additional observations from a re-analysis of the deposited data

Results flagged for a closer look

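In 64 groups of 4 libraries examined, 4 held a library far from the other 3, where chance gives about 1 in 20. Snord17 was at a log2 CPM of -3.03 in control library 4, which had 0 counts, against 1.15 to 1.75 in the other controls. Snora28 was at -3.03 in mito-supplemented library 2, also with 0 counts, against 0.66 to 1.05 in the others of its group. Snora81 was at 0.36 in mito-supplemented library 1, against 1.85 to 2.10. Nop58 was at 6.45 in control library 1, against 7.00 to 7.05.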

How the results depend on the processing

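The comparison of members has 32 tested genes, counts often under 100 and wide spread, so small differences could not be told from the spread between libraries. The part of depth in this was not tested. The annotation release, and so which reads were shared with hosts, is not known. Fits called 0 members at an adjusted p under 0.05 with a 2-fold difference under every alternative, while the likelihood ratio test called 58 and DESeq2 141 genes in all. At an unadjusted p under 0.05 there were 3 of 92 members with every gene of at least 1 count kept (7.54% of all genes), 1 of 44 with both libraries numbered 4 left out (9.31% of all genes) and 2 of 33 without the 3 libraries rich in red cell counts (10.8%). Leaving out each library in turn gave 0 to 1 member and 572 to 2003 genes. With the replicate block there were 981 genes and 0 members, and the median was -0.17 for members and 0.38 for box H/ACA genes. Rmrp and Kit then lost their unadjusted p under 0.05, and 2 stroma markers and 1 smooth muscle marker had one. Deviations from the group mean correlated between same-numbered libraries with r of -0.244, -0.191, -0.334 and 0.223. With 4 libraries per group these values cannot decide whether the numbers mark pairs.

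The median log2 fold change of members ran from -0.49 to 0.093 over single libraries left out, and was 0.57 without the 3 libraries rich in red cell counts. Under that setting, chosen after seeing the data, log2 fold changes turned to 1.86 for Snord14c, 2.03 for Snord14e, 4.23 for Snord14d, 3.85 for Snord22, 0.077 for Snord17, 1.36 for Snora23, 0.063 for Snora65, 0.28 for Snora28, 0.18 for Scarna9, 0.11 for Scarna13, 0.22 for Scarna2, 0.45 for Nop56 and 0.072 for Wrap53. The differences in share were then 36.4 ppm for all members, 19.7 for box C/D, 11.3 for box H/ACA and 5.30 for scaRNA genes, and that in percent of box H/ACA counts was -2.61. Without both libraries numbered 4, Snord100 had -0.24 and Snora81 -0.032. With limma-voom, Snord14e had 0.016, Snord14d 1.17 and Snord22 0.027. With the replicate block, Snord14d had 0.81 and Snora23 0.30. Scaling by library size alone gave 0.11 for Scarna2 and 0.088 for Nop56.

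Over single libraries left out, log2 fold changes ran from -1.47 to 0.15 for Snord22, -0.81 to 0.41 for Snora23, -0.71 to 0.10 for Snora28, -0.55 to 0.15 for Scarna2, -0.35 to 0.22 for Nop56, -0.72 to 0.0012 for Coil and -0.92 to 0.19 for Wrap53. Differences in share ran from -65.2 to 2.78 ppm for all members, -11.7 to 6.60 for box C/D, -10.8 to 4.04 for box H/ACA and -42.8 to -5.89 for scaRNA genes, and that in percent from -2.24 to 4.38. For members clear of other exons the differences were 3.23 for box C/D and 0.707 for box H/ACA genes, and for members of at least 100 counts 1.23 for box H/ACA genes. What caused these changes was not tested.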
